A study of Mus musculus with 2 samples.

Results

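The guanylate-binding protein genes *Gbp2*, *Gbp2b*, *Gbp3*, *Gbp4*, *Gbp5*, *Gbp6*, *Gbp7* and *Gbp8* were taken as a listed family, 8 of the 55357 genes in the deposited matrices. All 8 were found by symbol. They were followed in each cell class, in relation to detection of the chemokine gene *Cxcl9* in the same cell, and between the UEIS KI and UEIS LSL libraries. The other family genes of the matrices, *Gbp9*, *Gbp10* and *Gbp11*, are given beside them.

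Guanylate-binding proteins are large GTPases that cells make in response to interferons, above all interferon-gamma. They assemble on the vacuoles or surface of intracellular microbes, break open the vacuole and help to start inflammasome signalling. Their genes are switched on by interferon-activated transcription factors that bind GAS and ISRE elements, and in macrophages their RNA is widely used as a sign of an interferon response. *Cxcl9* encodes a ligand of CXCR3, the receptor that guides activated T cells, and is itself an interferon-gamma target.

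The cells were CD45+ cells sorted from subcutaneous tumours of MC38, a mouse colon adenocarcinoma line, in C57BL/6 hosts. One library was made from UEIS LSL mice and 1 from UEIS KI mice with the droplet-based 10x Genomics 3' v3 method. The labels do not expand either name, do not give age, promoter or Cre, and do not say how many mice were pooled. Tumour line, host strain, digestion and sorting were shared by both groups, and by its title the series concerns UEIS, a micropeptide said there to restrain innate DNA sensing through cGAS and STING and the type I interferon response. With 1 library a group no difference was tested. Each 95% interval covers counting error only, so it says nothing of the spread between mice.

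The libraries held 9527 and 9734 barcodes with 92764697 and 99404988 UMIs (unique molecular identifiers, each counting 1 captured RNA molecule), and 8647 and 8685 cells were kept. The libraries shared 34 barcodes. Levels are CPM, the UMIs of a gene scaled to 1000000 of the class's own UMIs. Each molecule was counted once at its 3' end, so levels of different genes were set side by side without a length correction. Cells were gated on markers, at least 3 of a class's set including a defining one. The macrophage gate required the C1q genes at 2000 CPM or more, and it took 4772 cells of UEIS LSL and 5197 of UEIS KI at median depths of 8834 and 9399 UMIs. Monocytes numbered 215 and 200, type 2 conventional dendritic cells (cDC2) 177 and 105, mature dendritic cells 86 and 47, T cells 111 and 83, and fibroblasts 336 and 180. These classes carried less than 1000 CPM of C1q RNA, and cells of a class above that limit were set apart as the class with macrophage RNA. The fibroblast gate went against the CD45+ sort, since *Ptprc*, the CD45 gene, was seen in 10.7% and 8.33% of its cells. A further 2239 and 2222 cells met no gate and had little C1q RNA, and are called the C1q-low remainder. Many cells lay at the lowest number of markers that passed, among them 83 of 177 and 62 of 105 cDC2.

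The family lies in 2 clusters of the GRCm38 genome. *Gbp2* (ENSMUSG00000028270, chromosome 3, 142620602 to 142638008), *Gbp2b* (142594847 to 142619179), *Gbp3* (142560026 to 142573209), *Gbp7* (142530342 to 142550149) and *Gbp5* (142493978 to 142522344) are on the plus strand of chromosome 3. *Gbp4* (chromosome 5, 105115767 to 105139586), *Gbp8* (105014150 to 105139540) and *Gbp6* (105270702 to 105293698) are on the minus strand of chromosome 5, with *Gbp9*, *Gbp10* and *Gbp11*. The RefSeq promoter table (GRCm38.p6) held 5 of the 8 genes, all from chromosome 3, and *Gbp4*, *Gbp6* and *Gbp8* had no entry. The 250 bases before each RefSeq start are shown because interferon-responsive elements can be read in them. How these elements relate to the levels of the genes was not tested. Capitals mark the GAS element TTCNNNGAA and the ISRE core, which is 2 copies of GAAA on 1 strand with any 2 bases between the copies, searched on both strands, so that the ISRE core appears as its reverse complement where it lies on the minus strand. For *Gbp3* the first of its 2 RefSeq starts is shown.
Gbp2 (chr3:142620413-142620662, plus strand): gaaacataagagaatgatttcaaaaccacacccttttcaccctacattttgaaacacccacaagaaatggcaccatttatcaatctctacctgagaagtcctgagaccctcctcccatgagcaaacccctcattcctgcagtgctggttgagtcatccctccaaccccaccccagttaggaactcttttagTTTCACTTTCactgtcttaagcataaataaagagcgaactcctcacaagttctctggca
Gbp2b (chr3:142594597-142594846, plus strand): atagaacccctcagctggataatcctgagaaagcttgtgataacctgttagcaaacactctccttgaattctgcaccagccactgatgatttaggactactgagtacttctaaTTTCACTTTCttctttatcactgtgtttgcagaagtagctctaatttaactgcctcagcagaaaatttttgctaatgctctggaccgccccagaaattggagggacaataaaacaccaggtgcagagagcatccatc
Gbp3 (chr3:142559794-142560043, plus strand): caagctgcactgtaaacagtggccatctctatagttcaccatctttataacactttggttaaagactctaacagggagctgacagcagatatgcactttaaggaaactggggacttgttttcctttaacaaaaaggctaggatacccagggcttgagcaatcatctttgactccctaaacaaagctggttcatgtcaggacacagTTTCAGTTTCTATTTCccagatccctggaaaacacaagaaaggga
Gbp5 (chr3:142496684-142496933, plus strand): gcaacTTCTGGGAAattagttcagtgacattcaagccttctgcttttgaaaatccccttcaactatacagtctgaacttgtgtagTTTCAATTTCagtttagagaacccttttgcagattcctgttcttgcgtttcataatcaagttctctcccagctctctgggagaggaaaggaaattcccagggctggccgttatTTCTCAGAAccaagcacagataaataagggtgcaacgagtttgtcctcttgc
Gbp7 (chr3:142530086-142530335, plus strand): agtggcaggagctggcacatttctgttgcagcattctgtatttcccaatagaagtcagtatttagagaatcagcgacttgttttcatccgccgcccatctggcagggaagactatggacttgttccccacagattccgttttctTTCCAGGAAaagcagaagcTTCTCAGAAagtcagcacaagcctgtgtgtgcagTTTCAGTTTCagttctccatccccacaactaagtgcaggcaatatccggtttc

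An ISRE core was present in the window of each of these 5 genes, at position -59 of *Gbp2*, -137 of *Gbp2b*, -45 and -39 of *Gbp3* (overlapping copies), -165 of *Gbp5* and -53 of *Gbp7*, counted from the start to the motif's first base. The GAS element was present only in *Gbp5*, at -245 and -52, and *Gbp7*, at -106 and -87, among the windows searched. The second *Gbp3* window held neither. Over all 32851 promoter windows of the same length in the table, 2.98% held the ISRE core, 7.02% the GAS element and 0.332% both. These matches describe letters and not binding, which was not measured. GENCODE places the start of *Gbp2*, *Gbp3*, *Gbp5* and *Gbp7* differently from RefSeq.

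The family was lower in UEIS KI macrophages, where each of the 7 members with at least 50 UMIs over both libraries was lower by 1.5-fold or more. Over all genes measured in macrophages 4.24% were lower and 6.09% higher by that much. The median log2 ratio of UEIS KI over UEIS LSL was -1.50 over the 7 members and 0.035 over all 12911 genes. Summed over the 8 genes the level was 181 CPM (177 to 185) in UEIS LSL and 72.7 CPM (70.4 to 75.0) in UEIS KI, 2.49-fold lower (2.40 to 2.59). At least 1 UMI of the family was seen in 48.6% of UEIS LSL macrophages and 34.1% of UEIS KI macrophages. The 7 measured members differed among themselves: the largest differences were those of *Gbp4* and *Gbp8*, and the smallest that of *Gbp7*.

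*Gbp2*, whose protein is lipid-anchored and coats bacteria and parasite vacuoles, was the most abundant member in UEIS LSL macrophages. It stood at 75.1 CPM (72.6 to 77.7) in UEIS LSL and 24.4 CPM (23.1 to 25.7) in UEIS KI, 3.08-fold lower (2.89 to 3.29). The cells with a *Gbp2* UMI were 953 and 486 of the macrophages (the latter 9.35%), and 1 cell alone held up to 52 UMIs. The RNA was thus concentrated in few cells, and counting intervals are narrower than the unevenness between cells.

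*Gbp5*, a lipid-anchored member known for promoting NLRP3 inflammasome assembly, stood at 9.92 CPM (9.03 to 10.9) in UEIS LSL and 3.52 CPM (3.03 to 4.06) in UEIS KI macrophages, 2.82-fold lower (2.37 to 3.36). *Gbp2b*, which encodes the protein also called mouse GBP1, was scarce, with 23 UMIs in UEIS LSL and 1 in UEIS KI. Its ratio was 27.1-fold lower with a counting interval of 4.40 to 1117, too wide to rank it among the others. *Gbp3* stood at 24.0 CPM (22.6 to 25.4) and 12.4 CPM (11.5 to 13.4), 1.93-fold lower (1.75 to 2.13). *Gbp7*, linked to assembly of the phagocyte oxidase on vacuoles, was the most widely seen member, in 29.5% and 21.4% of macrophages. Its level was 49.4 CPM (47.3 to 51.4) and 28.2 CPM (26.8 to 29.7), 1.75-fold lower (1.64 to 1.87). Over all macrophages *Gbp7* thus took the place of *Gbp2* as the most abundant member in UEIS KI. Within cells split by *Cxcl9* the order of these 2 genes was the same in both libraries. Without a *Cxcl9* UMI *Gbp7* was above *Gbp2*, at 42.6 against 34.4 CPM in UEIS LSL and 26.5 against 14.5 CPM in UEIS KI. With a *Cxcl9* UMI *Gbp2* was above *Gbp7*, at 351 against 95.3 CPM and 309 against 76.1 CPM.

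Among the 7 measured members the largest differences were those of 2 genes on chromosome 5. *Gbp4* stood at 11.5 CPM (10.5 to 12.5) in UEIS LSL and 1.88 CPM (1.53 to 2.28) in UEIS KI macrophages, 6.12-fold lower (4.94 to 7.65). *Gbp8* stood at 10.0 CPM (9.13 to 10.99) and 1.94 CPM (1.58 to 2.35), 5.18-fold lower (4.18 to 6.47). The intervals of these folds lay above those of the measured chromosome 3 members. The gap was narrower after thinning, but not with every cell counted alike. The log2 ratios were -2.61 for *Gbp4* and -2.37 for *Gbp8* against -1.62 for *Gbp2*. With every cell counted alike they were -2.37 and -2.35 against -1.40. With every cell thinned to 1000 UMIs they were -1.80 and -1.80 against -1.57. *Gbp6* was 2.61-fold lower (1.48 to 4.75) on 42 and 19 UMIs, an interval that overlaps that of *Gbp8*. *Gbp9* did not share the size of *Gbp4* and *Gbp8*. It was 1.91-fold lower (1.63 to 2.23), from 9.61 CPM (8.73 to 10.6) to 5.04 CPM (4.46 to 5.68).

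Near-identical copies limit some of these counts. Of the 90-base windows in the last 400 bases of *Gbp6* transcripts, 86.5% also occur in *Gbp10* or the predicted gene *Gm43302*, so the *Gbp6* level is uncertain. For *Gbp10* all 100% do, and it gave 0 UMIs in macrophages of either library. For *Gbp4* the share was 10.4%, and it was 0% for *Gbp2*, *Gbp2b*, *Gbp5*, *Gbp7*, *Gbp8* and *Gbp9*. *Gbp4*, *Gbp8* and *Gbp9* also share 60 or 61 exon bases on the same strand, and 11.3% of the exon bases of *Gbp7* lie in the processed pseudogene *Gm43802*. How the counting treated overlapping genes is not given in the sources used here. *Gbp11*, which GENCODE lists as a polymorphic pseudogene, gave 7 and 1 UMIs.

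**Figure D1:**
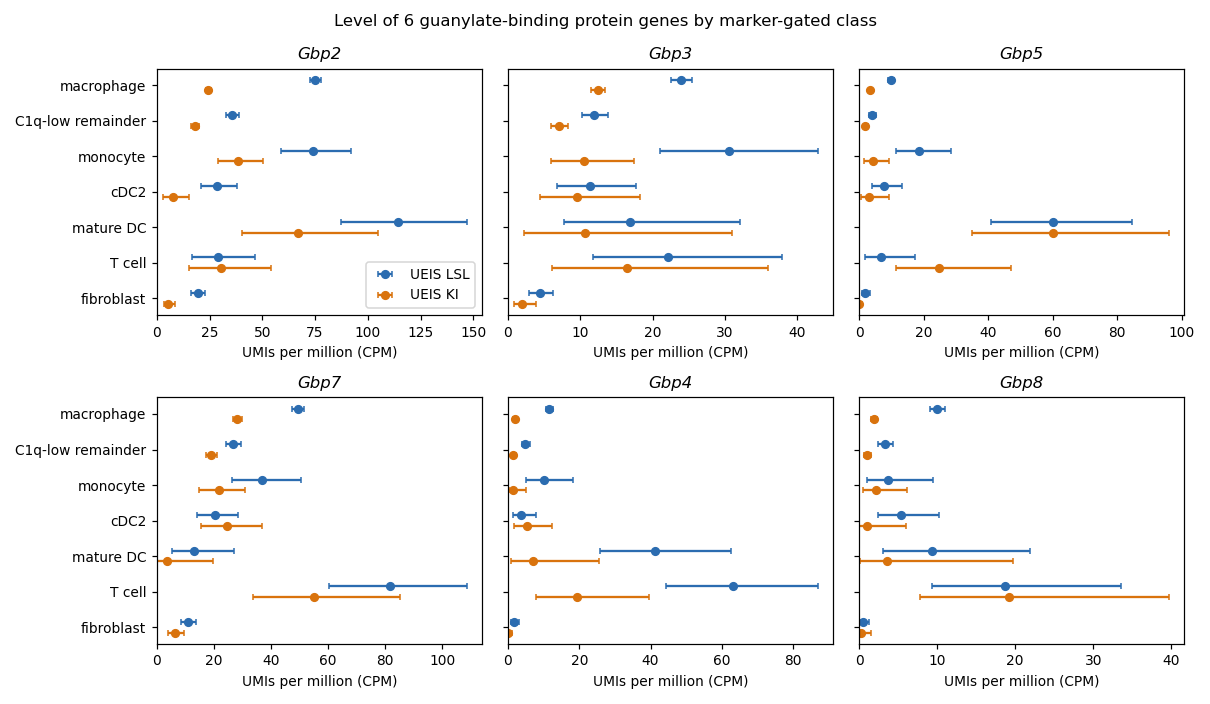
Level of 6 members by cell class, in CPM of the class total (linear axes, each with its own range). Points are 1 library each, blue UEIS LSL and orange UEIS KI, and bars are exact Poisson 95% intervals, which cover counting error only. Among the 7 classes plotted, the *Gbp2* and *Gbp5* points lay highest in mature dendritic cells in both libraries. The *Gbp7* and *Gbp4* points lay highest in T cells in both. Of these genes, the intervals of the highest 2 points overlapped for *Gbp4* in both libraries, and for *Gbp2* and *Gbp5* in UEIS KI only.

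Outside macrophages the classes held few UMIs of the family, yet their make-up differed. Among classes without macrophage RNA the summed level in UEIS LSL was highest in mature dendritic cells, at 259 CPM (217 to 306), then T cells at 227 CPM (190 to 269), macrophages at 181 and monocytes at 175 CPM (151 to 201), before the C1q-low remainder at 87.0 CPM (82.3 to 91.8), cDC2 at 77.1 CPM (64.3 to 91.6) and fibroblasts at 39.6 CPM (35.0 to 44.6). In this order mature dendritic cells and T cells, macrophages and monocytes, and the remainder and cDC2 did not differ beyond counting error. In UEIS KI T cells stood at 165 CPM (126 to 213), mature dendritic cells at 152 CPM (110 to 204), monocytes at 78.6 CPM (64.7 to 94.5), macrophages at 72.7, cDC2 at 51.2 CPM (37.8 to 67.9), the remainder at 48.8 CPM (45.8 to 51.9) and fibroblasts at 13.9 CPM (10.3 to 18.2). Here T cells and mature dendritic cells, monocytes and macrophages, and cDC2 and the remainder did not differ beyond counting error. The interval of the T cell level over the macrophage level ran from 1.04 to 1.48 in UEIS LSL. For UEIS KI this ratio was 2.27 (1.73 to 2.93).

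The make-up differed between T cells, mature dendritic cells and macrophages. In T cells *Gbp7* gave 36.1% and 33.3% of the family's UMIs in UEIS LSL and UEIS KI, against 27.2% and 38.8% in macrophages and 5.07% and 2.33% in mature dendritic cells. *Gbp5* gave 23.2% and 39.5% in mature dendritic cells, 5.47% and 4.84% in macrophages and 4 of 133 and 9 of 60 UMIs in T cells. *Gbp4* gave 27.8% and 11.7% in T cells and 6.34% and 2.59% in macrophages.

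In mature dendritic cells, the migratory form marked by *Ccr7* and *Ccl22*, *Gbp5* was 6.05 times (4.09 to 8.66) the macrophage level in UEIS LSL and 17.1 times (9.73 to 28.0) in UEIS KI. It stood at 60.0 CPM in both libraries, on 32 and 17 UMIs, with intervals of 41.1 to 84.7 and 35.0 to 96.1. The interval of the log2 ratio ran from -0.94 to 0.89, so a smaller difference was not detectable at this depth. *Gbp7* in the same cells was 3.76-fold lower (1.82 to 9.36) than in macrophages in UEIS LSL, with 7 UMIs, and 1 UMI was seen in UEIS KI.

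In T cells *Gbp4* was 5.48 times (3.82 to 7.66) the macrophage level in UEIS LSL, at 63.0 CPM (44.4 to 86.9), and 10.2 times (4.02 to 21.9) in UEIS KI, at 19.3 CPM (7.74 to 39.7). *Gbp7* was 1.66 times (1.22 to 2.20) and 1.95 times (1.19 to 3.02) the macrophage level. *Gbp2* was 2.59-fold lower (1.62 to 4.46) than in macrophages in UEIS LSL, while in UEIS KI the interval of the ratio, 0.618 to 2.23, included 1.

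The gates themselves kept C1q RNA low, so a low C1q share does not test for macrophage RNA. The share gives only the amount expected if carried RNA had the average make-up of all cells. RNA from cells low in C1q, or from macrophages rich in the family, was not covered. The C1q level of T cells was 4.14% and 4.72% of that over all cells, a share that would carry 6.41 and 3.11 CPM of the family against 227 and 165 CPM measured. In mature dendritic cells the same share would carry 5.73 and 2.92 CPM. T cells that did carry macrophage RNA had a C1q level of 117% and 103% of that over all cells, and their family levels of 278 and 154 CPM therefore hold macrophage molecules too. *Gbp4* and *Gbp5* were at 0 UMIs in the 180 UEIS KI fibroblasts, at a median depth of 17904.5 UMIs. With 0 set at 3 counts for a bound, and not by the exact interval, a share of up to 1.67% of cells with a UMI is allowed.

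**Figure D2:**
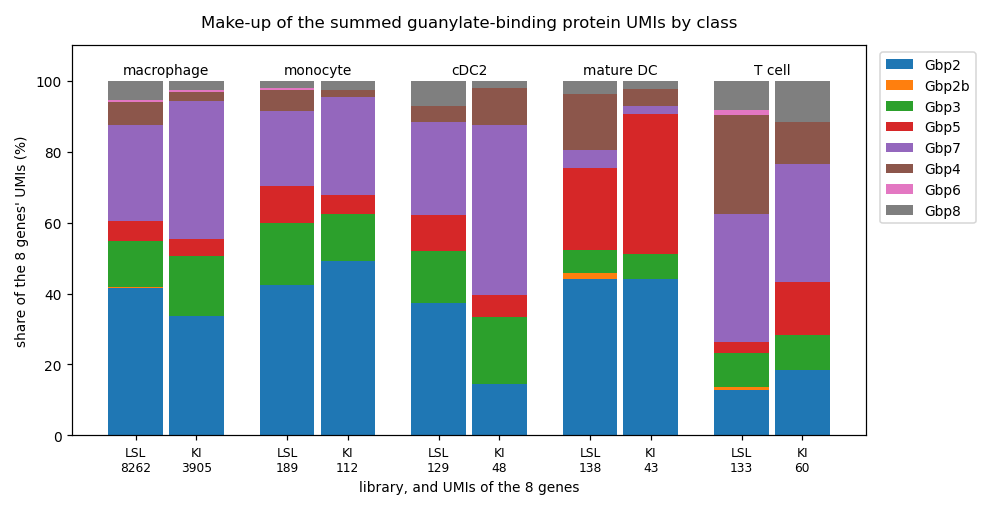
Share of the 8 genes' UMIs given by each member (stacked bars, percent) in 5 classes of each library, with the number of UMIs under each bar. In both libraries the share of *Gbp4* was larger and that of *Gbp2* smaller in T cells than in macrophages. In mature dendritic cells the share of *Gbp5* was larger and that of *Gbp7* smaller than in macrophages. These are shares of the sum and not levels.

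UEIS KI was lower than UEIS LSL in the summed level of each class with at least 30 cells per library that is plotted by level, by unequal amounts. The summed ratio was 2.22-fold lower (1.75 to 2.83) in monocytes, 1.71-fold lower (1.20 to 2.46) in mature dendritic cells, 1.505-fold lower (1.07 to 2.14) in cDC2 and 1.37-fold lower (1.005 to 1.89) in T cells. It was 1.78-fold lower (1.64 to 1.94) in the C1q-low remainder and 2.85-fold lower (2.11 to 3.93) in fibroblasts. The cDC2 and T cell differences did not hold their size: the log2 ratio of -0.59 was -0.024 with every cell thinned to 1000 UMIs, -0.011 with a stricter gate and -1.34 with cDC2 that carried macrophage RNA included. In T cells the log2 ratio of -0.46 was -0.11 both thinned and with a stricter gate. Fewer cells with the RNA and less RNA per cell cannot be told apart in these sums.

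Few single members could be measured outside macrophages. In the remainder 5 of 6 measured members were at least 1.5-fold lower, with *Gbp7* neither, against 4.84% of all genes. In monocytes *Gbp2* and *Gbp7* were measured and both were lower, against 5.91% of all genes. *Gbp2* there gave 80 UMIs in 35 cells and 55 UMIs in 16 cells, with up to 19 in 1 UEIS KI cell. Of 2 measured members in cDC2, *Gbp2* was lower, from 28.7 to 7.47 CPM, and *Gbp7* was neither, at 20.3 and 24.5 CPM, against 4.67% of all genes. *Gbp2* was the only member measured in mature dendritic cells, from 114 to 67.1 CPM, where 5.83% of all genes were lower by that much. In fibroblasts both measured members, *Gbp2* and *Gbp7*, were lower, against 7.51% of all genes.

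T cells held 1 measured member, *Gbp7*, at 81.8 CPM (60.3 to 108) and 55.0 CPM (33.6 to 85.0), which was neither, where 9.58% of all genes were lower by 1.5-fold. The members below 50 UMIs did not move alike in T cells. *Gbp4* gave 37 and 7 UMIs, a log2 ratio of -1.71 (-3.12 to -0.53), *Gbp2* 17 and 11 at 0.064 (-1.18 to 1.24), and *Gbp5* 4 and 9 at 1.86 (0.020 to 4.01), with 4 of the 9 in 1 cell. Neutrophils, with 23 and 46 cells, gave 3 and 16 UMIs of the family, NK cells, with 14 and 11 cells, 16 and 16, and B cells, with 22 and 24 cells, 16 and 2, too few to compare.

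Macrophages in which *Cxcl9* was seen held more of the family's RNA per UMI than the others. Without thinning, *Cxcl9* was seen in 529 UEIS LSL macrophages (11.1%) and 144 UEIS KI macrophages (2.77%), and these held 43.5% and 23.6% of the family's UMIs in macrophages but 12.8% and 3.35% of all UMIs. At least 1 *Cxcl9* UMI was also seen in T cells, which should lack the gene, in 3 of 111 (2.70%) and 4 of 83 (4.82%) at median depths of 3755 and 2354 UMIs. In UEIS KI the share of macrophages with 1 UMI or more was thus no higher than in T cells, though it was above that in fibroblasts, 1 of 180, and monocytes, 1 of 200. At 5 UMIs or more it was 5.45% and 1.17% of macrophages, against 2 of 111 and 0 of 83 T cells.

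To set depth aside, each macrophage was thinned to 1000 UMIs, which left out 77 and 140 shallower cells. *Cxcl9* was then seen in 252 of 4695 UEIS LSL cells and 57 of 5057 UEIS KI cells, and in 2 of 109 and 0 of 82 T cells. The family's summed level was 7.40 times (6.39 to 8.56) higher in UEIS LSL cells with *Cxcl9* than without, at 1052 against 142 CPM, and 14.5 times (10.9 to 19.2) higher in UEIS KI, at 1053 against 72.4 CPM. All 4 measured members in UEIS LSL and all 3 in UEIS KI were at least 1.5-fold higher, against 9.28% and 18.7% of all genes. The median log2 ratio was 2.24 over these members and -0.080 over all genes in UEIS LSL, and 2.73 against 0.27 in UEIS KI. The all-gene medians include genes with a count of 0, set at 3 counts, and so rest partly on bounds, while no measured member had a count of 0. Without thinning the all-gene medians were -0.045 in UEIS LSL and -0.063 in UEIS KI.

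Among members with at least 50 UMIs after thinning, *Gbp2* had the highest ratio in each library. In thinned UEIS LSL macrophages a *Gbp2* UMI was present in 39.3% (33.2 to 45.6) of cells with *Cxcl9* and 3.89% (3.34 to 4.50) of those without. In UEIS KI the shares were 29.8% (18.4 to 43.4) and 1.58% (1.253 to 1.97). Its ratio of 14.4 (11.7 to 17.7) ranked 3 of 7475 genes in UEIS LSL, after *Serpina3g* and *Iigp1*, and its ratio of 31.5 (21.0 to 46.3) ranked 1 of 7808 in UEIS KI. *C1qa* and *Actb*, which mark the cell and its cytoskeleton, had ratios of 1.06 and 1.03 in UEIS LSL and 0.991 and 0.980 in UEIS KI.

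*Gbp7* and *Gbp3* were related to *Cxcl9* less steeply. *Gbp7* was seen in 11.5% (7.84 to 16.1) of UEIS LSL cells with *Cxcl9* and 4.50% (3.91 to 5.15) without, and in 12.3% (5.08 to 23.7) and 2.88% (2.43 to 3.38) in UEIS KI. Its ratios were 2.62 (1.73 to 3.83) and 4.74 (2.01 to 9.59), below the intervals for *Gbp2*. *Gbp3* had ratios of 2.20 (1.14 to 3.94) and 6.65 (2.09 to 16.3), and *Gbp4* 8.59 (4.69 to 15.2) in UEIS LSL. *Gbp5* was under 50 UMIs after thinning, with 25 and 21 UMIs in UEIS LSL cells without and with *Cxcl9*, and it was seen in 0.495% and 7.94% of these cells. Its ratio of 14.8 (7.88 to 27.6) was close to that of *Gbp2*. In UEIS KI, on 4 UMIs each in cells with *Cxcl9*, *Gbp4* had a ratio of 25.1 (6.01 to 79.8) and *Gbp5* of 19.5 (4.80 to 59.2), intervals that overlap that of *Gbp2*.

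**Figure D3:**
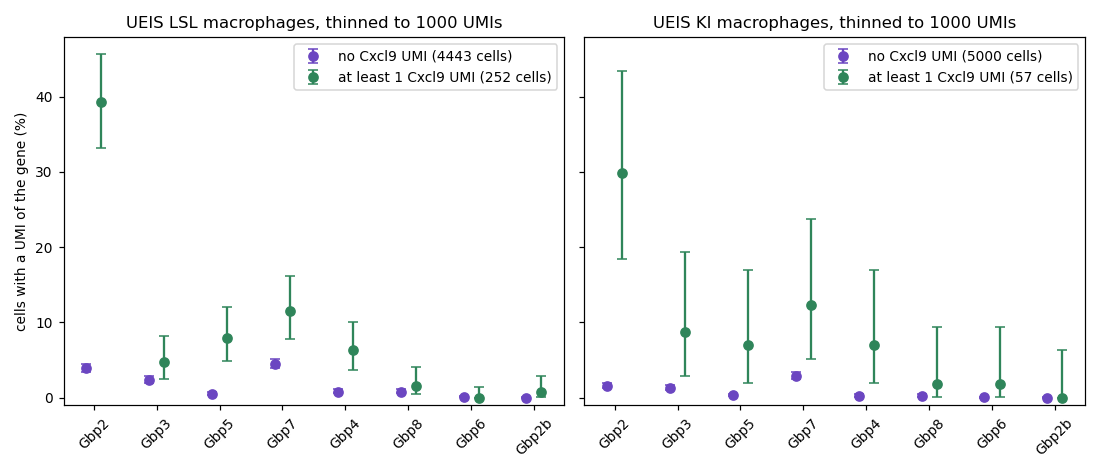
Share of macrophages with a UMI of each member (percent, linear axis) among cells with and without a *Cxcl9* UMI, each cell thinned to 1000 UMIs, UEIS LSL on the left and UEIS KI on the right. Bars are exact Clopper-Pearson 95% intervals for counting error. *Gbp2* was the member with the widest gap, 39.3% against 3.89% in UEIS LSL and 29.8% against 1.58% in UEIS KI.

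Without thinning more members could be measured, at the cost that deeper cells show *Cxcl9* more readily. Median depth was 10221 and 10974.5 UMIs in cells with *Cxcl9* and 8590 and 9318 in cells without. All 6 members measured in each library were at least 1.5-fold higher with *Cxcl9*, against 3.29% and 6.63% of all genes. The cells with *Cxcl9* held 60.0% and 42.4% of the *Gbp2* UMIs, 50.4% and 34.9% of the *Gbp5* UMIs and 49.6% and 41.6% of the *Gbp4* UMIs. They held 24.8% and 9.04% of the *Gbp7* UMIs. Of the 23 *Gbp2b* UMIs in UEIS LSL macrophages 18 were in these cells, 17 of them in cells with 5 or more *Cxcl9* UMIs.

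The relation was graded. In UEIS LSL the summed family level was 118 CPM (114 to 121) in macrophages with 0 *Cxcl9* UMIs, 199 CPM (179 to 220) with 1, 494 CPM (452 to 538) with 2 to 4 and 936 CPM (901 to 972) with 5 or more. In UEIS KI it was 57.5 CPM (55.4 to 59.6), 198 CPM (166 to 236), 380 CPM (320 to 449) and 836 CPM (773 to 902). The intervals of the libraries lay apart at 0 and at 2 to 4 *Cxcl9* UMIs, and overlapped at 1 and narrowly at 5 or more. *Gbp2* ran from 34.4 to 565 CPM over these steps in UEIS LSL and from 14.5 to 534 CPM in UEIS KI, while *Gbp7* ran from 42.6 to 125 CPM and from 26.5 to 101 CPM.

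**Figure D4:**
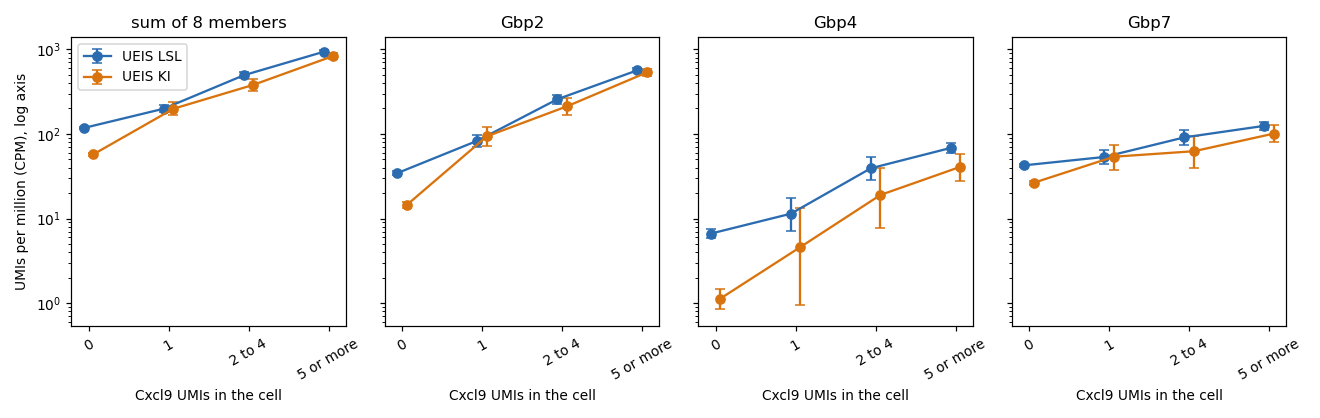
Level of the 8 genes summed and of *Gbp2*, *Gbp4* and *Gbp7* (CPM, log axis) in macrophages with 0, 1, 2 to 4 and 5 or more *Cxcl9* UMIs, not thinned. Blue is UEIS LSL and orange UEIS KI, with exact Poisson 95% intervals. The summed level ran from 118 to 936 CPM in UEIS LSL and from 57.5 to 836 CPM in UEIS KI.

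The comparison of the libraries changed with *Cxcl9* detection. Among macrophages with *Cxcl9* the summed level was 614 CPM in the UEIS LSL library and 512 CPM in the other, and the log2 ratio was -0.26 (-0.37 to -0.16). Among those without it was 118 and 57.5 CPM, a log2 ratio of -1.03 (-1.10 to -0.97). In cells without *Cxcl9* all 6 measured members were lower in UEIS KI by 1.5-fold or more, against 4.03% of all genes. In cells with *Cxcl9* 2 of 6 were lower by that much, *Gbp4* and *Gbp8*, against 5.45% of all genes.

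*Gbp4* stood at 44.5 and 23.3 CPM in cells with *Cxcl9*, a log2 ratio of -0.93 (-1.44 to -0.46), and *Gbp8* at 24.1 and 10.6 CPM, a log2 ratio of -1.19 (-1.97 to -0.50). *Gbp2* stood at 351 and 309 CPM, at -0.19 (-0.32 to -0.050), and *Gbp7* at 95.3 and 76.1 CPM, at -0.32 (-0.60 to -0.051). The intervals of *Gbp3*, -0.37 to 0.30, and *Gbp5*, -0.51 to 0.31, included 0. *Cxcl9* itself was at 1301 and 731 CPM among the cells in which it was seen. With both libraries weighted to the same shares of cells with and without *Cxcl9*, the macrophage median of the members was -0.74 in place of -1.50 and the summed log2 ratio -0.77 in place of -1.32.

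**Figure D5:**
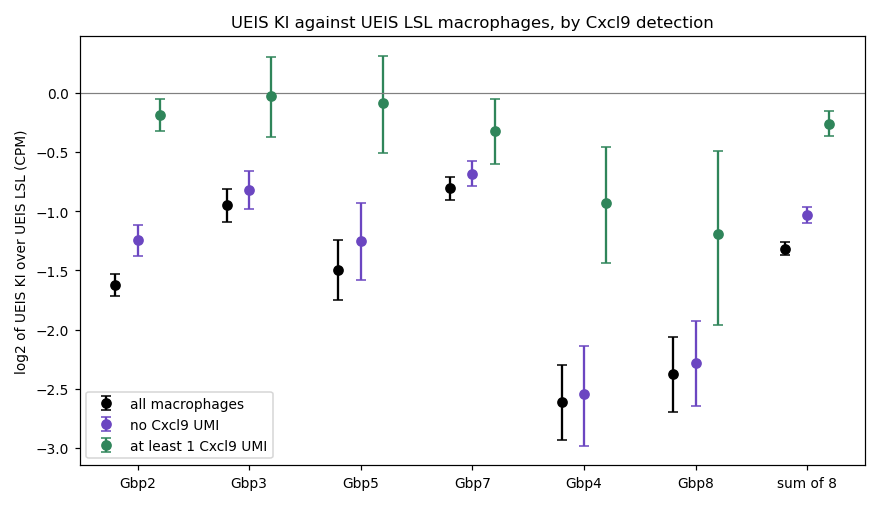
Log2 ratio of UEIS KI over UEIS LSL in macrophages for 6 members and the sum of 8, over all macrophages (black), cells without a *Cxcl9* UMI (purple) and cells with one (green). Bars are exact 95% counting intervals and 0 means equal levels. The summed ratio was -1.32 over all macrophages, -1.03 without *Cxcl9* and -0.26 with it, and *Gbp4* and *Gbp8* stayed lower in UEIS KI in each.

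Members were also seen together. In thinned macrophages with a *Gbp2* UMI, *Cxcl9* was 22.4 times the level in those without in UEIS LSL and 29.2 times in UEIS KI. *Gbp4* was 10.7 times and *Gbp7* 2.96 times higher there in UEIS LSL, and *Gbp7* 4.31 times and *Gbp3* 7.50 times higher in UEIS KI. These cells were chosen by *Gbp2*, so it is not counted here. The other measured members, *Gbp3*, *Gbp4* and *Gbp7* in UEIS LSL and *Gbp3* and *Gbp7* in UEIS KI, were each more than 1.5-fold higher, as were 9.52% and 16.7% of all genes. At this thinned depth 86.7% of UEIS LSL and 93.7% of UEIS KI macrophages showed no member. Exactly 2 members were seen in 86 and 26 cells, and 3 or more in 22 and 10 cells.

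Macrophages were split by markers of known tumour macrophage states, each state being the top 25% by marker level over both libraries. These are ranges of a score and not cell types, and they filled unequally: 40.3% of UEIS LSL and 10.99% of UEIS KI macrophages were in the MHC class II-high range, 12.4% and 36.6% in the osteopontin-high range (*Spp1*), and 15.8% and 33.4% in the resident-like range (*Lyve1* and *Folr2*). The summed family level was highest in the MHC class II-high range, at 257 and 132 CPM, and lowest in the osteopontin-high range, at 105 and 53.7 CPM. It was 139 and 71.8 CPM in the resident-like range, 173 and 61.6 CPM in dividing cells (*Mki67* and *Top2a*) and 167 and 63.9 CPM in the hypoxia-response range. The summed log2 ratio ran from -0.95 in the MHC class II-high range to -1.49 in dividing cells, so it was lower in UEIS KI in each of these 5 ranges. Weighted to the same mix of ranges it was -1.002, and the median of the members was -1.18.

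The immunity-related GTPases, a second family of interferon-induced GTPases that act on vacuoles beside the guanylate-binding proteins, were lower too. In UEIS KI macrophages all 8 measured of 9 were lower by 1.5-fold or more, against 4.24% of all genes, with a median log2 ratio of -1.08. *Ifi47* stood at 51.9 and 20.4 CPM, *Iigp1* at 27.0 and 9.70 CPM, *Irgm1* at 23.9 and 11.5 CPM and *Igtp* at 22.2 and 11.6 CPM. Of the very large inducible GTPases only *Gvin1* was found, with 13 and 6 UMIs. None of the 9 genes of the vacuole-targeting machinery, the autophagy conjugation genes and *Rab11a*, was lower or higher by 1.5-fold, with a median of 0.065. Most genes were neither, since 4.24% of all genes were lower and 6.09% higher. *Gabarap* stood at 893 and 962 CPM, *Gabarapl2* at 121 and 116 CPM and *Atg3* at 89.6 and 88.5 CPM, while *Rab11a* stood at 256 and 373 CPM.

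Inflammasome genes, which act downstream of these GTPases, had a median of -0.12, and 1 of 8 was lower: *Il1b*, the cytokine released by inflammasomes, at 1304 and 729 CPM. *Pycard* stood at 291 and 282 CPM, *Nlrp3* at 68.6 and 72.9 CPM and *Gsdmd*, the pore former, at 66.4 and 57.9 CPM. None of the 4 interferon receptor genes was lower or higher by 1.5-fold (median -0.24), from *Ifngr1* at 265 and 217 CPM to *Ifnar1* at 98.0 and 82.1 CPM. For both lists the shares over all genes were 4.24% lower and 6.09% higher.

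Of the 9 kinases and transcription factors of interferon signalling 5 were lower and 4 neither. For this and the next lists the shares over all genes in macrophages were 4.24% lower and 6.09% higher. *Irf1* stood at 76.3 and 37.7 CPM, against *Irf8* at 155 and 141 CPM and *Jak1* at 112 and 112 CPM. Feedback inhibitors gave 2 of 4 lower, *Socs1* at 24.5 and 12.7 CPM and *Usp18* at 11.9 and 5.81 CPM, and *Socs3* and *Ptpn2* neither. Interferon-gamma targets gave 9 of 14 lower and 0 higher, with a median of -0.95, led in abundance by *Psmb8* at 380 and 255 CPM, *Cxcl10* at 265 and 109 CPM, *Cxcl9* at 167 and 24.5 CPM and *Psmb9* at 128 and 74.2 CPM. Type I interferon targets gave 13 of 15 lower and 0 higher, with a median of -1.06, among them *Isg15* at 95.2 and 39.1 CPM, *Rsad2* at 48.0 and 18.2 CPM, *Irf7* at 44.0 and 24.6 CPM and *Zbp1* at 35.4 and 15.02 CPM. The lists share an origin in interferon signalling, and *Usp18* is on 2 of them. Interferon transcripts were scarce in the macrophage gate, with 63 and 14 UMIs of *Ifnb1* and 56 and 8 of *Ifng*. *Ifng* is made mainly by T and NK cells, and the median macrophage of either library held 0 UMIs of the T cell and NK cell marker sets. This median describes the typical cell only, after cells that met the T or NK cell gate were set aside. Whether the cells that held the *Ifng* UMIs carried T or NK cell RNA was not tested. With a stricter macrophage gate, C1q at 4000 CPM or more and no T, NK or B cell marker UMI, the family's summed log2 ratio was -1.27 in place of -1.32.

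Across 9 gated classes in both libraries, 18 points in all, the genes whose level was most like the summed family included *Gpr65* (Pearson r = 0.911), *AW112010* (0.901), *Parp14* (0.874) and *B2m* (0.873), out of 9884 genes compared on log2(CPM + 10). The points share 2 libraries and include classes that carry macrophage RNA, so these values describe the pattern and carry no test. *Gbp2* alone was most like *Psmb10* (0.825), followed by *Ndufa3* (0.787) and *Cxcl9* (0.778). *Gbp7* alone was most like *Rhoh* (0.928), a gene of lymphoid cells.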

How the data were processed

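Both samples are CD45+ cells of MC38 tumours. The authors deposited 1 filtered matrix of UMI counts per library. Cell Ranger is named as 2.1.1, with mm10, per the submitters' processing notes and as 8.0.1 per the file headers. Of the 55357 gene identifiers, 52081 (94.1%) matched GENCODE vM21.

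Barcodes with under 500 UMIs, under 200 genes or over 10% mitochondrial UMIs were left out. Scrublet in scanpy 1.11.5 called no doublets with its automatic threshold, so the barcodes with the highest scores, 0.8% per 1000 barcodes, were removed (726 and 758). Cells were gated on at least 3 markers of 1 class, including a defining one. Counts were summed per class and library and divided by the class total. A gene was measured with at least 50 UMIs over both groups compared, and called past 1.5-fold. Intervals are exact at 95% (Poisson, Clopper-Pearson and conditional binomial). A level of 0 was set at 3 counts for a bound. Cells were thinned to 1000 UMIs, leaving out shallower cells. Python 3.11.15, numpy 2.4.6, scipy 1.17.1, pandas 2.3.3 and matplotlib 3.10.9 were used, and the ratio script was tested on simulated data.

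All members and the 3 other family genes are named. Other lists are given by count with up to 4 genes, those with the most UMIs in macrophages, and the genes of most similar pattern are those with the highest correlation over classes. A gene that these rules name is not reported here. The members and lists were chosen with earlier results of these data known, and the gate limits, the *Cxcl9* steps and the comparison without thinning were set after the data were seen. Alternatives covered filters, doublets, gates, weighting, thinning and the mix of cells.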

Additional observations from a re-analysis of the deposited data

How the results depend on the processing

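With 1 library a group no spread between mice could be measured, and few cells held many of the UMIs, so counting intervals are a lower limit of the error. No paired analysis was possible because each group has 1 library. Over the alternatives, 88 values for groups of members stayed within the counting interval or 1.5 times of the reported ones, 14 moved further, and none changed direction. Some of the 88 moved within wide intervals: the summed T cell log2 ratio of -0.46 was -0.11 thinned and with a stricter gate, the T cell median of -0.57 was -0.092 with every cell counted alike, and the cDC2 median of -0.83 was -0.24 with members of at least 20 UMIs. The summed macrophage log2 ratio of -1.32 was -1.17 with every cell counted alike, -1.19 thinned, -1.26 with the C1q-low remainder included, -1.002 with the same mix of ranges, -0.77 with the same shares of cells with *Cxcl9* and -0.74 with the same shares of its steps. The median over members of -1.50 was -1.18, -0.74 and -0.70 under the last 3 of these. The alternatives for the *Cxcl9* steps, the remainder, shared barcodes and cells with macrophage RNA were chosen after seeing the data. The summed cDC2 log2 ratio of -0.59 was -0.024 thinned, -0.011 with a stricter gate and -1.34 with cells that carry macrophage RNA. The median by *Cxcl9* detection in UEIS LSL, 2.24 over 4 measured members, was 3.34 over 5 members with called doublets kept. It was 2.97 over 4 members with a mitochondrial limit of 20%. The cause of these moves was not tested, and the spread between random draws of the thinning was not measured. Single members in macrophages kept their direction in each of 12 alternatives, with *Gbp7* between -0.82 and -0.62 and *Gbp4* between -2.63 and -1.74. *Gbp2* lay between -1.64 and -0.63, the latter with the same shares of *Cxcl9* steps.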
